A study of Homo sapiens with 3 samples.

Results

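The RUNX2 peaks that share no base with any CBFB peak, called RUNX2-only peaks here, were described in SAOS2 cells. They were chosen by position alone, on chromosomes 1 to 22 and X, from the peak lists of chromatin immunoprecipitation followed by sequencing (ChIP-seq). Of 9926 RUNX2 peaks on these chromosomes, 572 were RUNX2-only, a share of 5.76% (exact 95% interval 5.31 to 6.24), and 9354 overlapped a CBFB peak. The paper reports that a smaller part of the RUNX2 peaks overlapped CBFB peaks. It does not state its overlap rule, and the reason for the difference was not tested. SAOS2 is a human osteosarcoma cell line that is p53 null, and the cells were untreated and kept below 20 passages. Peaks came from 1 library per antibody, a custom made RUNX2 antibody and a CBFB antibody from Bethyl, and the list of 27190 CBFB peaks on the same chromosomes defined the overlap. An input DNA library from the same cells was not analysed here. With no replicate libraries, no test between groups of peaks was possible, and all intervals below cover counting error only. The lists hold no read counts, so depth is unknown.

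RUNX2 is the RUNX family transcription factor that drives osteoblast differentiation, and it contacts DNA through its Runt domain. Its partner CBFB has no DNA contacts of its own, and RUNX proteins paired with it sit more firmly on their sites. Members of the RUNX family recognise a short core sequence, TGTGGT, whereas many promoters of housekeeping genes carry ETS motifs, and tRNA genes carry an internal promoter made of an A box and a B box.

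Sequences of 3 kinds are shown because they mark the kinds of site found among the RUNX2-only peaks. All are read from GRCh37 (hg19), 5′ to 3′ on the strand named. The first are from the highest-scoring RUNX2-only peaks with the longer RUNX motif TGTGGTT, on either strand, within 100 bp of the midpoint, and the motif is in capitals. This motif was present in 23.4% of all RUNX2 windows of that length.
RYR2 intron, chr1:237766487-237766543, minus strand: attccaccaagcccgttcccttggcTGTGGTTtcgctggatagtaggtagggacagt
BMP4 intron, chr14:54424392-54424448, minus strand: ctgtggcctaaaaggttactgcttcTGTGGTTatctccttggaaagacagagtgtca
Intergenic, 30552 bp from the transcription start site (TSS) of ENSG00000259394, chr15:63275850-63275906, minus strand: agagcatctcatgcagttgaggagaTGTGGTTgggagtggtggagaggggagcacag
The next is from the highest-scoring peak with the ETS motif CCGGAAG, in capitals, in the same window, which 3.04% of all RUNX2 windows held on either strand.
MRPS31 promoter, chr13:41345327-41345383, minus strand: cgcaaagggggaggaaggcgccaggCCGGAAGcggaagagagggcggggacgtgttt
The last are tRNA gene-like sequences, in which the A box and the B box are in capitals. Such a pair lay inside 0.393% of all RUNX2 peaks, which differ in width.
Intergenic, between ZNF184 and H2BC13, chr6:27721180-27721254, minus strand: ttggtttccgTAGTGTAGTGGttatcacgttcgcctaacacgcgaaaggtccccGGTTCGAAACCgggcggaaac
Intergenic, between ZNF213 and OR1F1, chr16:3202898-3202972, plus strand: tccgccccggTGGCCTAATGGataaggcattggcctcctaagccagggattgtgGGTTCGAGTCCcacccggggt
A match to any of these letters is a description of the sequence and does not show binding.

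RUNX2-only peaks had mostly low scores. The score is the value given by the authors' peak caller, read here as -10 times log10 of the p-value, and both lists start at 50. The median was 59.3 in the RUNX2-only peaks, with 90% of them at or below 88.3. The median of the overlapping peaks was 87.0, with 90% at or below 211. With the RUNX2 list ranked by score and split into 5 equal parts, called score groups 1 to 5 from the lowest, group 1 held 288 RUNX2-only peaks among 1985, a share of 14.5% (13.0 to 16.1). The share was 8.87% in group 2, 3.27% in group 3 and 1.56% in group 4, and in the highest group it was 0.604% (0.313 to 1.05), or 12 of 1986 peaks. RUNX2-only peaks were also narrower, with a median width of 782 bp against 944 bp. Within score groups 1 and 2 the median widths were 758 and 835 bp. The score was not used to choose the peaks, but it belongs to the same library as the positions, and the dependence of the overlap on the depth of either library was not tested.

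**Figure D1:**
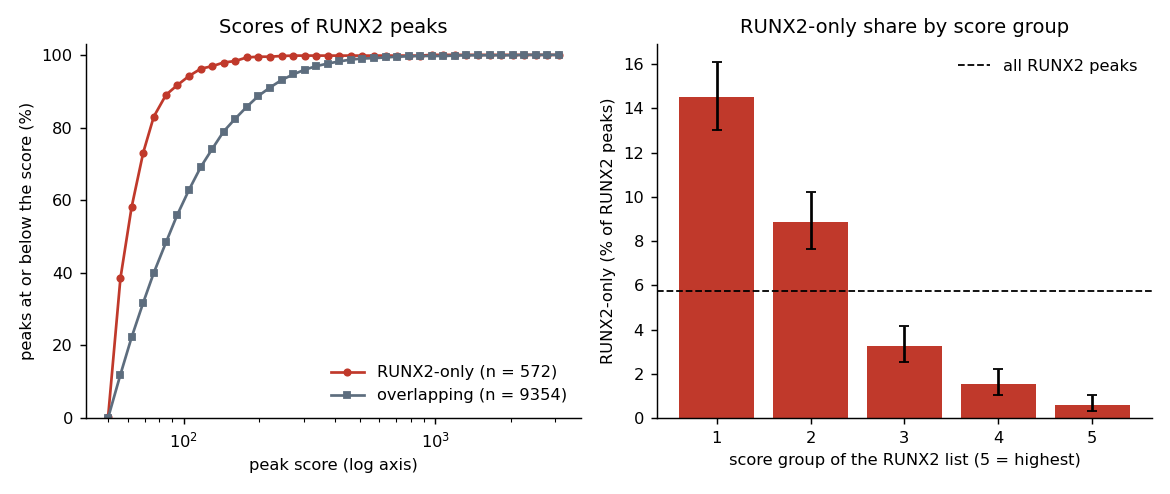
Left, the share of RUNX2 peaks (%) at or below each peak score (log axis) for 572 RUNX2-only and 9354 overlapping peaks. Right, the share of RUNX2-only peaks (%) in each score group of the RUNX2 list with exact 95% intervals and a dashed line at 5.76%; the bars fall from 14.5% in group 1 to 0.604% in group 5.

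Few RUNX2-only peaks lay beside a CBFB peak. That the gap is above 0 follows from the rule, so its size is given as a description. The gap to the nearest CBFB edge had a median of 20778 bp, and the middle 50% of the peaks lay 6270 to 53655 bp away. Only 33 of the 572 peaks, or 5.77%, had a gap under 1 kb. Another 87 lay at 1 to 5 kb, 69 at 5 to 10 kb, 227 at 10 to 50 kb, 73 at 50 to 100 kb, 70 at 100 to 500 kb and 13 farther away. At the limit of the rule, the smallest gaps were 3, 16 and 35 bp, for peaks with scores of 57.84, 59.95 and 53.38. The overlapping peaks just outside the rule shared 6, 39 and 51 bp with a CBFB peak and scored 76.09, 56.80 and 54.01. The peak with the smallest gap lay on chromosome 10 and that with the next on chromosome 3, both over 5 kb from any TSS. The fifth smallest gap, 158 bp, belonged to a peak in an intron of TRIR.

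The most remote RUNX2-only peak lay 1624884 bp from any CBFB peak, in an intron of the pseudogene CHMP1B2P on chromosome X, with a score of 62.1. The next lay 1203797 bp away near IGHV1-68 in the immunoglobulin heavy chain locus, with a score of 56.7. A peak in CNTNAP3B, a gene with near-identical copies on chromosome 9, had a gap of 975136 bp, and 100% of its 32-base words occurred more than once in the genome. A peak upstream of ESRRG, an orphan nuclear receptor gene, had a gap of 969937 bp and a score of 53.4. The median score was 57.8 for gaps under 1 kb and 57.7 for gaps of 100 to 500 kb. RUNX2-only peaks also lay farther from the nearest other RUNX2 peak, at a median of 58320 bp against 36528 bp for overlapping peaks. A RUNX2 peak within 100 kb was present for 63.3% of the RUNX2-only and 74.1% of the overlapping peaks, where 73.5% of all RUNX2 peaks had one (difference -10.8 points, 95% interval -14.9 to -6.8).

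**Figure D2:**
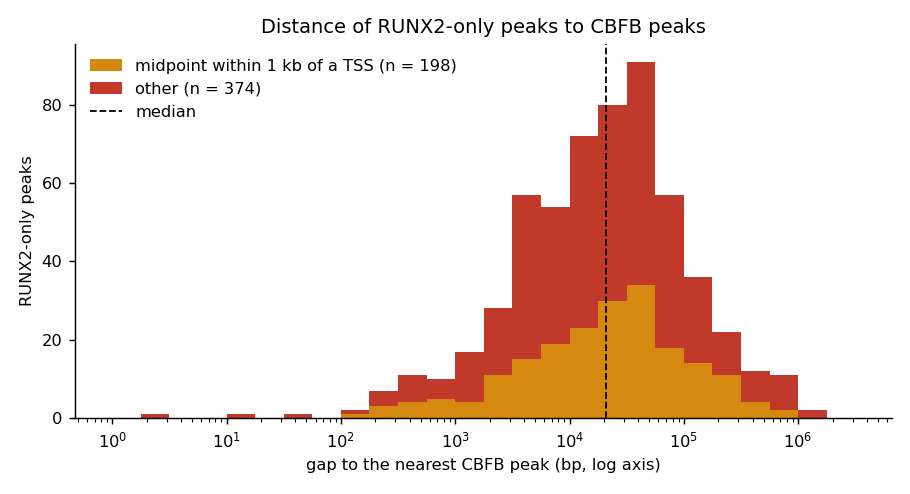
Number of RUNX2-only peaks by the gap to the nearest CBFB peak (bp, log axis), stacked by whether the peak midpoint lay within 1 kb of a transcription start site (198 peaks) or not (374 peaks). The dashed line marks the median of 20778 bp, and 33 peaks lie below 1 kb.

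Many RUNX2-only peaks sat on start sites. The midpoint lay within 1 kb of a TSS in 198 of 572 peaks, or 34.6% (30.7 to 38.7), where 26.9% of all RUNX2 peaks had one. The difference from the overlapping peaks was present at like scores. In group 1 the shares were 31.2% of RUNX2-only and 24.6% of overlapping peaks (difference 6.7 points, 95% interval 1.2 to 12.6), and in group 2 they were 35.2% and 27.0% (8.3 points, 1.3 to 15.8). In groups 4 and 5 together, 19 of 43 RUNX2-only peaks and 1031 of 3928 overlapping peaks lay at a TSS (17.9 points, 4.1 to 32.7). Taken singly, groups 4 and 5 had intervals that included 0. The RUNX2-only share was higher in each higher score group, up to 6 of 12 peaks in group 5, but the intervals of neighbouring groups overlapped. These values count TSS of any gene type. With protein-coding TSS only, the RUNX2-only share did not rise in each group, with 31.2% in group 2 and 26.2% in group 3. The protein-coding difference from overlapping peaks was 6.4 points (2.3 to 10.8) in groups 1 and 2 together. In groups 4 and 5 together it was 9.8 points, with an interval that included 0 (-1.9 to 24.7). Among peaks at a TSS, the median distance of the midpoint from it was 110 bp for RUNX2-only and 153 bp for overlapping peaks.

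A TSS of a protein-coding gene lay within 1 kb of the midpoint in 27.3% of RUNX2-only peaks and in 21.4% of all RUNX2 peaks. The nearest TSS belonged to a protein-coding gene in 144 of the 198 peaks, or 72.7%, and in 72.4% of the overlapping peaks at a TSS. Long noncoding RNA genes gave 35 of the 198, or 17.7% (12.6 to 23.7), against 20.9%. Genes annotated as snRNA gave 5, or 2.53% (0.825 to 5.79), against 0.851% (0.527 to 1.30), and genes annotated as snoRNA gave 3, or 1.52% (0.314 to 4.36), against 0.243% (0.0892 to 0.528). Start sites of 2 or more protein-coding genes lay within 1 kb of the midpoint in 31 RUNX2-only peaks, or 5.42%, against 3.29% of overlapping peaks (difference 2.1 points, 0.5 to 4.3). Shared promoters of this kind included MRPL36 with NDUFS6, COG4 with SF3B3, and ZWILCH with RPL4. High CpG content went with the start sites. The observed CpG count was over 0.6 of that expected from base composition in 27.3% of RUNX2-only and 17.3% of overlapping peaks, and among peaks at a TSS in 68.2% and 58.9% (difference 9.3 points, 2.2 to 15.6). The GC content itself was near equal, with medians of 47.2% and 47.7%. By class, 51.4% of RUNX2-only peaks were within 5 kb of a TSS, against 45.9% of all RUNX2 peaks, 30.4% in the rest of a gene, 11.7% within 25 kb of one and 6.47% farther away.

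**Figure D3:**
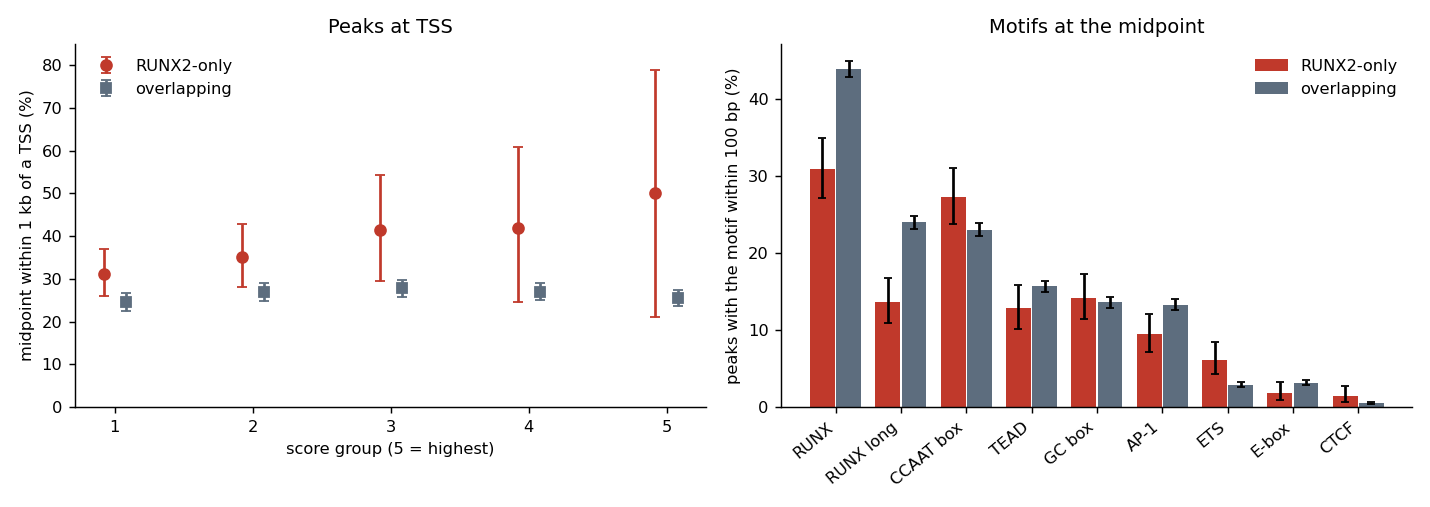
Left, the share of peaks (%) with the midpoint within 1 kb of a start site, by score group, for RUNX2-only and overlapping peaks. Right, the share of peaks (%) with each motif within 100 bp of the midpoint, with exact 95% intervals in both; the RUNX motif stands at 30.9% in RUNX2-only and 43.9% in overlapping peaks, and the ETS motif at 6.12% and 2.85%.

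Many of the highest-scoring RUNX2-only peaks lay at genes of small RNAs and histones. The top score, 943, belonged to chr1:16990610-16997313 at RNU1-3, a copy of the gene for U1, the small nuclear RNA that recognises the 5′ splice site. This peak was 6704 bp wide and lay 5592 bp from a CBFB peak. Of its 32-base words, 99.2% occurred more than once in the genome. The peaks at H4C15 (chr1:149831868-149836323) and H3C15 (chr1:149821947-149825503), histone H4 and H3 genes of the chromosome 1 histone cluster, scored 229 and 163, and 100% of the words were multi-copy in both. RNU7-1, the gene of the U7 RNA that processes histone mRNA ends, had a peak of score 172 in C12orf57 (chr12:7052856-7054449), 568 bp from a CBFB peak, with only 0.832% multi-copy words. RNU5B-1, a gene of the U5 spliceosomal RNA, had a peak of score 162 (chr15:65596875-65598156) with 22.1% multi-copy words. The other peaks among the 10 highest were in an intron of HFM1, a meiotic helicase gene, with a score of 271, at NPAS4, a neuronal transcription factor gene, with a score of 193, at ENSG00000279602 on chromosome 17, with a score of 167, and at the tRNA gene-like array on chromosome 1, with scores of 164 and 163. Among the 12 RUNX2-only peaks of score group 5, 7 were at snRNA, snoRNA, histone or tRNA gene-like sequences, and in 6 over 50% of the words were multi-copy. In groups 4 and 5 together, such genes took 13 of 43 RUNX2-only and 100 of 3928 overlapping peaks.

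Across the list, counts by gene class were read against the 5.76% of all RUNX2 peaks that were RUNX2-only. Of the 4557 RUNX2 peaks within 5 kb of any TSS, the reach used for the gene lists, 294 were RUNX2-only, or 6.45% (5.76 to 7.20). Small nucleolar RNAs guide the modification and cutting of ribosomal RNA. Genes annotated as such had a RUNX2 peak within 5 kb of their start in 73 cases, of which 15 were RUNX2-only, a share of 20.5% (12.0 to 31.6). The annotation was taken as given, and the name snoU13 was counted on chromosomes 9, 15 and 17. Whether each copy is an active gene was not tested. The highest-scoring of the 15 were at SNORD3B-2 and SNORD3C, copies of the U3 gene on chromosome 17, with scores of 135 and 123. Their gaps were 681 and 1016 bp, and 92.5% and 95.9% of their words were multi-copy. Many snoRNA genes lie in introns of protein-coding hosts, and some of the peaks were at the start of the host. These included SNORA73B at RCC1, the exchange factor of Ran, with a score of 73.3, SNORD45C at RABGGTB with 76.5, and SNORD2 at EIF4A2 with 66.2. Genes annotated as snRNA had 8 RUNX2-only peaks of 104, or 7.69% (3.38 to 14.6). With the TSS within 1 kb in place of 5 kb, their share was 18.2%. In the 5 kb count, 3 of the 8 had pseudogene names, with scores from 53.6 to 76.8. The U4 gene RNU4-2 had a score of 74.5. For microRNA genes the share was 3.89% (1.58 to 7.85), or 7 of 180, among them MIRLET7A3, with a score of 57.1. It was 8.06% with the TSS within 1 kb and 1.49% for RUNX2 peaks with a score of at least 100.

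Of the classes counted, sequences like tRNA genes had the highest share. On chromosomes 1 to 22 and X, 288 pairs of an A box and a B box were found, 59 of them in RUNX2 peaks, and 26 of these 59 lay in RUNX2-only peaks. CBFB peaks held 50 pairs, of which 31 also lay in a RUNX2 peak and 19 did not. By peak, 12 of 39 RUNX2 peaks with a pair were RUNX2-only, or 30.8% (17.0 to 47.6). The scores of the 12 ran from 60.1 to 164 with a median of 93.4, and the gaps from 1449 to 76954 bp. In the other direction, 2.10% of RUNX2-only and 0.289% of overlapping peaks held a pair (difference 1.8 points, 0.9 to 3.3). Away from TSS, these counts were 11 of 374 and 9 of 6885 peaks. The largest group was 3 adjacent peaks between CFAP126 and FCGR2A on chromosome 1, which held 13 pairs and scored 163, 164 and 118, with 95.5% to 97.0% multi-copy words. Of the other 9 peaks, 8 had 14.0% multi-copy words or fewer, among them the peaks at ZNF184 and H2BC13 (score 108), ZNF213 and OR1F1 (97.2), ZNF692 and PGBD2 (96.5), and OR4D9 and OSBP (90.3), named by the flanking protein-coding genes. For 10 of the 12, the RefSeq gene order of GRCh38.p14 placed an annotated tRNA gene between the same neighbours. There were 0 between ZNF692 and PGBD2 and 0 between PPIAL4C and FCGR1A. Some intervals held many, with 27 between CFAP126 and FCGR2A, where 3 of the peaks lay, and 33 between ZNF184 and H2BC13. The share for peaks without a pair was not computed.

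Promoters of housekeeping genes carried RUNX2-only peaks of low score. The 7 lists of ribosomal protein, mitochondrial ribosomal protein, splicing, translation, aminoacyl-tRNA synthetase, oxidative phosphorylation and proteasome genes together had 149 RUNX2 peaks, of which 19 were RUNX2-only, or 12.8% (7.86 to 19.2). For comparison, 7.35% (6.28 to 8.55) of the RUNX2 peaks at any protein-coding TSS were RUNX2-only. Within score groups 1 and 2 the counts were 17 of 64 peaks, or 26.6% (16.3 to 39.1), against 14.8% (12.4 to 17.3) at any protein-coding TSS. The intervals overlapped in both cases, and the lists were counted within 5 kb of the TSS but the protein-coding peaks within 1 kb. Of the cytosolic ribosomal protein genes, 5 had such a peak. Among them, RPL35A, which encodes a protein of the large ribosomal subunit, had a score of 66.8, RPS27L scored 52.1, and RPL4 shared its peak with ZWILCH at 51.7. Of the mitochondrial ribosomal protein genes, MRPS31 scored 137, MRPL42 scored 65.4, MRPL36 scored 58.4 and MRPL19 scored 55.9. The peak at SNRPB, which encodes a core Sm protein of spliceosomal particles, lay 1 bp from the TSS and 150276 bp from the nearest CBFB peak, with a score of 73.2. EIF4A2, a translation initiation helicase gene, had a score of 66.2 and a gap of 572321 bp. COX5B, a cytochrome oxidase subunit gene, scored 62.1, and PSMC2, a proteasome ATPase gene, scored 54.0.

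Zinc finger genes named ZNF had 9 RUNX2-only peaks of 71, or 12.7% (5.96 to 22.7). All 9 had scores from 50.3 to 61.6, and within score groups 1 and 2 they made 9 of 27 peaks, or 33.3% (16.5 to 54.0). In these score groups, 12.8% of RUNX2 peaks within 5 kb of any TSS were RUNX2-only. The share was 14.8% within 1 kb of a protein-coding TSS. The 9 ZNF peaks included ZNF717 (61.6, 62.5% multi-copy words), ZNF473 (60.7) and ZNF184 (60.5). Replication-dependent histone genes had 3 of 20, or 15.0% (3.21 to 37.9), the third being H2BC9 with a score of 59.1. Without multi-copy peaks the histone share was 7.14%. None of 11 peaks at DNA replication genes and none of 10 at DNA repair genes was RUNX2-only, with intervals that reach 28.5% and 30.8%. HOX genes had no RUNX2 peak.

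**Figure D4:**
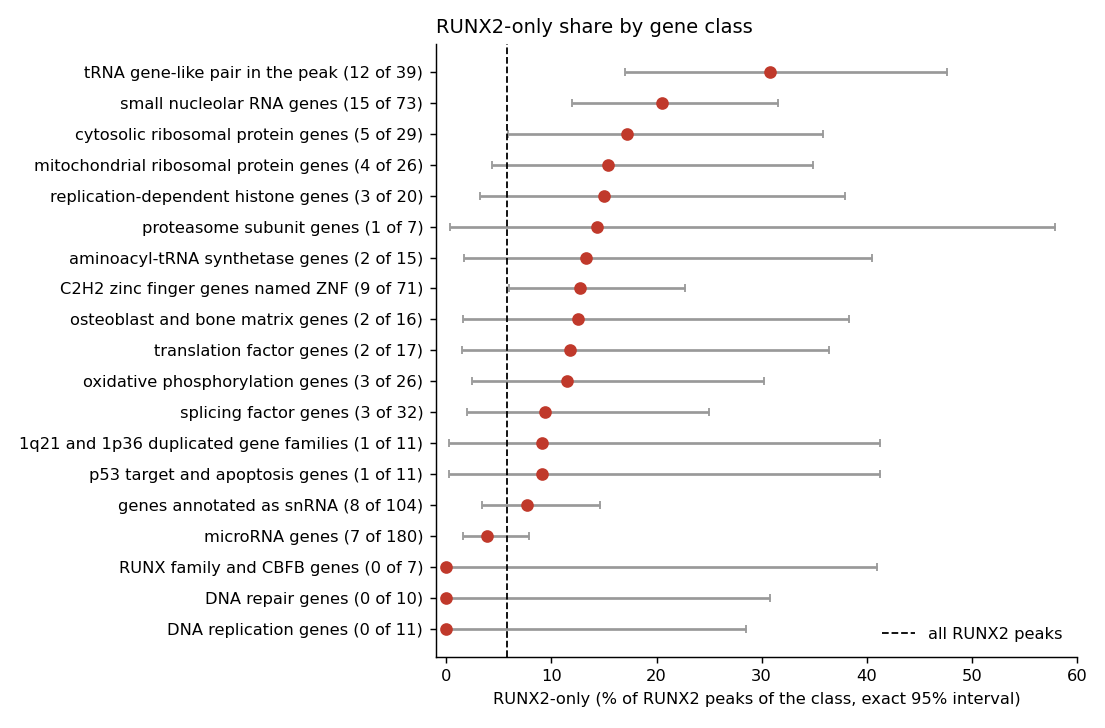
Share of RUNX2 peaks that were RUNX2-only (%) for each gene class with 7 or more RUNX2 peaks, with exact 95% intervals and counts beside each name; the dashed line marks the 5.76% of all RUNX2 peaks. The tRNA gene-like peaks stand at 30.8% and the snoRNA genes at 20.5%, and most other intervals include the line. The intervals of the ZNF and cytosolic ribosomal protein genes start above the line, at 5.96% and 5.85%. Both start below the 6.45% of RUNX2 peaks within 5 kb of any start site.

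The bone genes examined had 2 RUNX2-only peaks at their promoters. Of 16 RUNX2 peaks at osteoblast and bone matrix genes, these made up 12.5% (1.55 to 38.3). The first lay in BMP4, a bone morphogenetic protein gene, at chr14:54423932-54425092. It had a score of 104 and a gap of 4853 bp, and 2 RUNX core motifs lay within 100 bp of its midpoint. The second lay in COL1A2, the gene of the second chain of type I collagen, at chr7:94025276-94026019, with a score of 63.6. An intron of BCL2L1, which encodes the survival protein BCL-XL, held the 1 RUNX2-only peak of the 11 at p53 target and apoptosis genes, with a score of 52.1. Within 25 kb of RUNX2, CBFB, SP7, ALPL and MYC there was 1 RUNX2-only peak, in an intron of RUNX2 itself at chr6:45451038-45452369, with a score of 66.1 and a gap of 2127 bp. The number of all RUNX2 peaks in that reach is not given here, so this count cannot be read as a share. None of the 7 RUNX2 peaks at the promoters of the RUNX genes and CBFB was RUNX2-only, with an interval that reaches 41.0%, well above the 5.76% of all RUNX2 peaks.

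The RUNX motif was less frequent in RUNX2-only peaks. TGTGGT, on either strand, lay within 100 bp of the midpoint in 177 of 572 RUNX2-only peaks, or 30.9%, and in 43.9% of overlapping peaks, where 43.2% of all RUNX2 peaks had it (difference -13.0 points, -16.7 to -8.9). The longer TGTGGTT, which contains the core, was at 13.6% against 24.0% (-10.3 points, -13.0 to -7.2). The difference was present within score groups, at 35.4% against 42.7% in group 1 and 30.1% against 44.4% in group 2, and in groups 4 and 5 the RUNX2-only share was 23.3% against 44.6% (-21.3 points, -31.5 to -6.7). It was also present away from TSS, with 37.4% against 50.7% (-13.2 points, -18.1 to -8.1), and was smaller at TSS, with 18.7% against 25.1% (-6.4 points, -11.5 to -0.1). Of the 10 highest-scoring RUNX2-only peaks, only that in HFM1 had the core within 100 bp of the midpoint. These peaks were up to 7248 bp wide, so the window covered a small part of the widest. In the whole peak, only those at NPAS4 and RNU5B-1 lacked the core. The strongest with the longer motif within 100 bp of the midpoint was in an intron of RYR2, a calcium release channel gene. It had a score of 146 and a gap of 721471 bp, and its sequence is given above. Of its 32-base words, 19.3% occurred more than once in the genome, where the median over RUNX2-only peaks was 0.148%. In the whole peak, higher-scoring peaks such as that at RNU1-3 also held the longer motif.

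The ETS motif CCGGAAG showed the opposite direction, at start sites. It lay within 100 bp of the midpoint in 35 RUNX2-only peaks, or 6.12%, and in 2.85% of overlapping peaks, with 3.04% over all RUNX2 peaks (difference 3.3 points, 1.5 to 5.6). Among peaks at a TSS the shares were 16.2% and 8.30% (7.9 points, 3.2 to 13.7), and away from TSS they were 0.802% and 0.901% (-0.1 points, -0.7 to 1.4). The 35 peaks were at promoters such as MRPS31, POLR2A, the largest subunit of RNA polymerase II, RCC1, SNRPB, TOMM40 (70.5), a mitochondrial import channel, DBR1 (62.4), the enzyme that opens intron lariats, COX5B, KAT8 (54.3), a histone acetyltransferase, MED15 (51.3), a Mediator subunit, and HARS1, the histidyl-tRNA synthetase gene. In all, 32 of the 35 lay within 1 kb of a TSS. The AP-1 motif TGANTCA was at 9.44% against 13.3% (-3.9 points, -6.1 to -1.1), and in the whole peak at 28.1% against 38.5%. The CCAAT box was at 27.3% against 23.0%, with 23.3% over all RUNX2 peaks (4.2 points, 0.7 to 8.1), but in the whole peak at 69.8% against 70.9% (-1.1 points, -5.1 to 2.6). The TEAD motif GGAATG (-2.9 points, -5.5 to 0.2) and the GC box GGGCGG (0.6 points, -2.2 to 3.7) had intervals that included 0. In the whole peak, TEAD was at 41.3% against 50.2% (-8.9 points, -13.0 to -4.7). RUNX2-only peaks were narrower, and the part of width in the whole-peak shares was not tested. A CTCF-like motif lay within 100 bp of the midpoint in 8 of 572 RUNX2-only peaks and in 0.449% of overlapping peaks, where 0.504% of all RUNX2 peaks had one (difference 0.9 points, 0.2 to 2.3). These 8 included the peaks at H4C15, MREG and GNAT1.

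Multi-copy sequence was more frequent in RUNX2-only peaks but did not make up most of them. Over 50% of the 32-base words occurred more than once in the genome in 37 of 572 peaks, or 6.47%, against 2.37% of overlapping and 2.61% of all RUNX2 peaks (difference 4.1 points, 2.3 to 6.4). Reads from such words cannot be placed at 1 copy with certainty, and how the authors' mapping treated them is not given in the sources used here. The scores and positions of these 37 peaks, and so their lack of an overlapping CBFB peak, are therefore uncertain. In 49.0% of RUNX2-only and 57.1% of overlapping peaks there was no multi-copy word at all. The 37 peaks included U1, U3 and histone gene copies, DDT, NOTCH2 and ZNF717. Without peaks of this kind, the TSS shares were 34.2% and 26.2%, the RUNX motif shares 31.2% and 44.3%, and the tRNA gene-like shares 1.50% and 0.296%.

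RUNX2-only peaks were mostly scattered along the chromosomes. When peaks within 100 kb of each other were joined, the 572 formed 537 groups, of which 510 held a single peak, and 10.8% of the peaks had another RUNX2-only peak that near. The largest group held 4 peaks, at chr6:24645961-24761818 by KIAA0319 and ACOT13, with scores from 62.35 to 109.2 and no overlapping RUNX2 peak among them. Groups of 3 included the tRNA gene-like array, the U3 genes on chromosome 17, 3 peaks at chr17:41437804-41496936 with scores from 59.83 to 167.3, 3 peaks at CBLC, NECTIN2 and TOMM40 on chromosome 19 with scores from 66.85 to 71.15, and 3 peaks at BSCL2, MTA2 and SNORA57 on chromosome 11. These groups were described after their values were seen.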

How the data were processed

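The RUNX2 and CBFB ChIP-seq libraries of SAOS2 cells each gave 1 peak list, and the input library was not analysed here. Per the submitters' processing notes, CASAVA 1.8.2, MACS 1.4.1 and build hg19 were used. The aligner, the calling limit and the use of input as control were not given in the sources used here. The score deposited by the authors, with no unit named, was read as the MACS score of -10 log10 p. It ran from 50 to 3100 and depends on library depth, which is unknown, so scores were not compared between lists.

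Overlap meant at least 1 shared bp. Genes came from GENCODE release 44 mapped to GRCh37, and genes of a list were counted at peaks with the midpoint within 5 kb of their TSS. CpG observed over expected, GC content and 14 motifs were computed from the genome. The repeat-masked share that was planned could not be computed, since the genome is not masked, and was replaced by the share of 32-base words found more than once in the genome. The tRNA gene-like search (A box, 19 to 80 bases, B box) was added after the peaks were seen, because tRNA genes are not in the annotation used. Members and lists were chosen with earlier results of these data known.

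Shares carry exact Clopper-Pearson 95% intervals and differences Newcombe intervals. These cover counting error only, since peaks are not replicates, and no p-value was computed. Peaks named were the 10 of highest score, the 5 nearest to and 5 farthest from CBFB, up to 3 per list, those within 25 kb of RUNX2, CBFB, MYC, SP7 or ALPL, and for the sequences the 5 and 3 of highest score with the longer RUNX and the ETS motif. Some peaks and sequences that the rule names are not reported here. Further peaks named in the text were chosen after their values were seen. The steps were tested on simulated data. Alternatives are given in the closing section. Python 3.11.15, numpy 2.4.6, pandas 2.3.3, scipy 1.17.1, pysam 0.24.0, numba 0.67.0 and matplotlib 3.10.9 were used.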

Additional observations from a re-analysis of the deposited data

How the results depend on the processing

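No paired analysis was possible because the groups were 1 library each. Of 77 alternative values, 56 moved by less than the 95% interval of the main value and 21 moved by more. The count that changed sign was 0, but only the differences from overlapping peaks could do so. Shares, scores and distances cannot be negative. The share of RUNX2-only peaks moved to 15.4% when CBFB peaks were limited to a score of at least 100, to 1.03% when RUNX2 peaks were so limited, and to 4.55% with a gap of at least 5 kb. The TSS share was 51.4% with 5 kb, 29.9% with 500 bp and 27.3% with protein-coding TSS only, and its difference from overlapping peaks stayed between 5.82 and 8.64 points. The RUNX motif share was 15.7% within 50 bp, 62.9% in the whole peak, 13.6% for TGTGGTT, 18.7% at TSS and 37.4% away from TSS, and its difference was -8.79 points within 50 bp and -6.38 points at TSS. Peaks with another RUNX2-only peak nearby made up 2.27% at 10 kb and 47.0% at 1 Mb. With TSS within 1 kb, the RUNX2-only share at snRNA genes was 18.2% and at microRNA genes 8.06%. With a score of at least 100, it was 1.49% at microRNA genes and 0 at ZNF, splicing factor and oxidative phosphorylation genes. Some moves have a direction fixed by the setting. A wider window or shorter motif can only add peaks to the TSS, neighbour and motif shares, and protein-coding TSS only can only remove them. A score limit on CBFB peaks can only raise the RUNX2-only share, and a limit on the gap can only lower it. The cause of the other moves was not tested. The median score and the median gap moved by less than their intervals. Removal of multi-copy peaks, the tRNA gene-like search and the split of motifs by TSS were added after the data were seen. The 2 alternatives on repeat masking were not run. Depth is unknown, and no value could be set against the spread between replicates.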

Other observations

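A telomere-like repeat lay in 3 of 572 RUNX2-only peaks, or 0.524%, and in 19 of 9354 overlapping peaks, or 0.203%, with 0.222% over all RUNX2 peaks, and the interval of the difference included 0. The RUNX2-only share ran from 3.03% (0.369 to 10.5) on chromosome 18 to 8.57% (5.72 to 12.2) on chromosome 19. The interval lay wholly below the share of all RUNX2 peaks, 5.76%, on chromosome 2, at 3.92% (2.73 to 5.43), and wholly above it on chromosome 12, at 8.30% (5.97 to 11.2), among 23 chromosomes.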
